A study of Homo sapiens with 22 samples.

Results

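The replication-dependent histone genes are the gene family that supplies core and linker histones during DNA replication. They were taken here as every gene name that starts with HIST1H, HIST2H, HIST3H or HIST4H in both raw count tables, which gave 89 of 59087 gene names. By class as read from the name, 8 names belonged to H1, 23 to H2A, 25 to H2B, 17 to H3 and 16 to H4. The pseudogene HIST1H1PS2 was thereby placed in H1, although its current symbol, H3P26, is that of an H3 pseudogene. The reference annotation gives 71 of them as protein coding, and 18 are pseudogenes. RNA-seq was performed on HUDEP-2, an immortalized human erythroid progenitor line that matures in culture, in expansion medium at D0 and after 6 days in differentiation medium at D6. One experiment compared 2 H2A.X WT with 3 H2A.X KO libraries on each day, and the other compared 3 BAZ1B WT with 3 BAZ1B KO libraries on each day, 22 libraries in all. The KO cells were CRISPR/Cas9 deletion subclones, each grown from single cells after lentiviral delivery of paired guides, so a difference between subclones and a difference between genotypes share the same few cultures. H2AFX encodes the histone variant H2A.X, and BAZ1B encodes the kinase that phosphorylates it. The question for the histone genes is whether their RNA differed between KO and WT and between days of maturation.

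Replication-dependent histone genes are transcribed mainly in S phase, when new DNA has to be packaged. Their mRNAs are the exception among animal mRNAs in that they usually end in a conserved stem-loop, bound by SLBP, in place of a poly(A) tail. Several members also give polyadenylated mRNAs from a downstream signal, above all in differentiating cells. The libraries were made from RNA captured on oligo-dT beads, so a stem-loop mRNA is counted through polyadenylated forms or as RNA carried over without a tail.

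The stem-loop was present in the genome at the end of every protein-coding member. A 16-base stem-loop lay within 150 bases after the stop codon in 71 of 71 genes, at 23 to 68 bases (median 36), against 16 of 19874 other protein-coding genes (0.0805%). The sequences below are from hg38, written 5′ to 3′ on the strand of the gene with T for U, and the capitals mark the stem-loop. They are the genes on which the results turn, 1 or more for each class.
HIST1H4C, H4, chr6:26104312-26104337, plus strand: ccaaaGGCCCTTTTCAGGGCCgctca
HIST1H4B, H4, chr6:26026896-26026921, minus strand: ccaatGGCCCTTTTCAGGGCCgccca
HIST1H4H, H4, chr6:26285126-26285151, minus strand: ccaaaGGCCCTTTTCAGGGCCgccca
HIST1H1C, H1, chr6:26055739-26055764, minus strand: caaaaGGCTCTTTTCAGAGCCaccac
HIST1H2AG, H2A, chr6:27133510-27133535, plus strand: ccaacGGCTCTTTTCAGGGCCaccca
HIST3H2A, H2A, chr1:228457364-228457389, minus strand: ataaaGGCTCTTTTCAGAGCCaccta
HIST1H2BD, H2B, chr6:26158582-26158607, plus strand: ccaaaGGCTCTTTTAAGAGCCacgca
HIST1H3G, H3, chr6:26270918-26270943, minus strand: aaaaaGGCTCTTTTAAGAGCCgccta

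The stem separated H4 from the other classes. It began with GGCCC in 15 of 15 H4 genes and in 0 of 56 genes of the other classes, and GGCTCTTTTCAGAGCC was the most frequent form, in 41 of the 71 genes. What the annotation places after the stem-loop also differed. In 53 genes the annotated transcripts ended at most 18 bases past it, whereas in 18 genes an annotated transcript ran at least 430 bases further. Of the 10 genes known to give polyadenylated mRNA (HIST1H1C, HIST1H2AC, HIST1H2BC, HIST1H2BD, HIST1H2BJ, HIST1H2BK, HIST1H4H, HIST2H2BE, HIST3H2A and HIST4H4), 8 were among these 18.

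Promoter sequences (RefSeq, GRCh38.p14) were matched for 66 of the 71 coding genes, from 250 bases before to 50 bases after the start. Searched on both strands, the CCAAT box was found in 56 of the 66 and in 35.7% of all 27305 promoters. It was present in all promoters of H1, H2A, H2B and H3 but in 3 of 13 H4 promoters. The TATA letters TATAAA occurred in 44 of the 66 and in 12% of all promoters. The octamer ATTTGCAT occurred in 14 of 18 H2B, 11 of 16 H2A, 1 of 13 H3, 0 of 6 H1 and 0 of 13 H4 promoters, against 1.8% of all promoters.

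Histone genes made up little of these libraries. Between 11910141 and 21013004 reads per library were assigned to genes in the H2A.X experiment and between 33199408 and 41273244 in the BAZ1B experiment. Levels below are normalized read counts, that is counts scaled to a common effective library size within each experiment, or CPM, counts divided by that size in units of 1000000, summed over genes. The erythroid label fitted its markers, with 61201 to 764263 normalized counts of HBB in any library, and the markers CD3E, MS4A1, MPO, PF4, PPBP and CSF1R of other blood cells were at 0 to 10.7. Other markers of such cells were read, with the mast cell tryptase gene TPSAB1 at 13.3 to 8626, the megakaryocyte gene ITGA2B at 33.98 to 2836, the myeloid gene SPI1 at 19.0 to 1396 and the eosinophil gene EPX at 0 to 1631, and their part in the results was not tested. H2AFX had 1575 and 1969 normalized counts in WT against 333, 787 and 760 in KO at D0, and 1748 and 2391 against 308, 1050 and 799 at D6, so every KO library was lower although none was at 0. BAZ1B was 9104 to 9913 in WT and 6556 to 8349 in KO of its own experiment. The H2A.X deletion was placed from before the start codon to just after the stop codon, and the BAZ1B deletion around the first exon. Counts over each whole gene include reads from outside its deletion.

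Of the 89 genes, 18 had no read in any library, among them 11 protein-coding genes. Several of these cannot be judged from such counts. HIST2H2AA3 and HIST2H2AA4, HIST2H3A and HIST2H3C, and HIST2H4A and HIST2H4B are near-identical copies, and 14 members shared at least 50% of their 75-base windows with another histone gene. HIST1H3D, HIST1H2AD and HIST1H2AM have at least 50% of their exon bases under exons of another gene. Filtering on low counts left 52 members for testing in the H2A.X experiment and 42 in the BAZ1B experiment, with 41 in common, and 18 members had reads but were tested in neither. Because a gene could pass through the group where it was high, counts over tested members are not counts over the family. The median mean normalized count of a tested member was 31.8 and 21.2 in the H2A.X and the BAZ1B experiment.

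Per length of annotated exon, the same few genes led. HIST1H4C (H4) was highest in the H2A.X experiment at 815 normalized counts per kilobase, followed by the linker histone gene HIST1H1C at 402. In the BAZ1B experiment HIST1H1C was highest at 685, followed by HIST1H2BK (H2B) at 389 and HIST1H4C at 167. The other most counted genes, by mean normalized count and not per length, of each class were HIST1H1B (H1), HIST1H2AC, HIST1H2AG and HIST3H2A (H2A), HIST1H2BD (H2B), HIST1H3H, HIST1H3C and HIST1H3G (H3), and HIST1H4B and HIST1H4H (H4).

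In the H2A.X experiment 1 library stood apart, and it belongs to the WT group at D6. The 89 genes summed to 84.7 and 103 CPM in WT at D0 and to 51.9, 61.7 and 69.4 CPM in KO at D0. At D6 the sums were 164 and 627 CPM in WT replicates 1 and 2, and 69.6, 99.8 and 54.1 CPM in KO. WT replicate 2 at D6, also the library with the fewest assigned reads, was therefore 3.82 times replicate 1, and higher in 51 of the 52 tested members with a median log2 difference of 1.95. All classes shared this difference, from 3.12 times for H2B to 4.45 times for H4. A set of 24 RNAs that carry no poly(A) tail, such as the signal recognition particle RNA RN7SL1 and the RNase MRP RNA RMRP, was summed in the same libraries. It gave 15.998 and 12.9 CPM in WT and 20.9, 20.8 and 20.2 CPM in KO at D0, and 45.1 and 176 CPM in WT and 15.2, 12.01 and 7.14 CPM in KO at D6. WT replicate 2 at D6 thus held 3.89 times the sum of replicate 1 for these RNAs too, and both WT libraries at D6 were above all the others. Of the 24, 9 were at 0 throughout, RN7SK and RPPH1 among them. The part of carried-over RNA in the histone values was not tested.

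**Figure D1:**
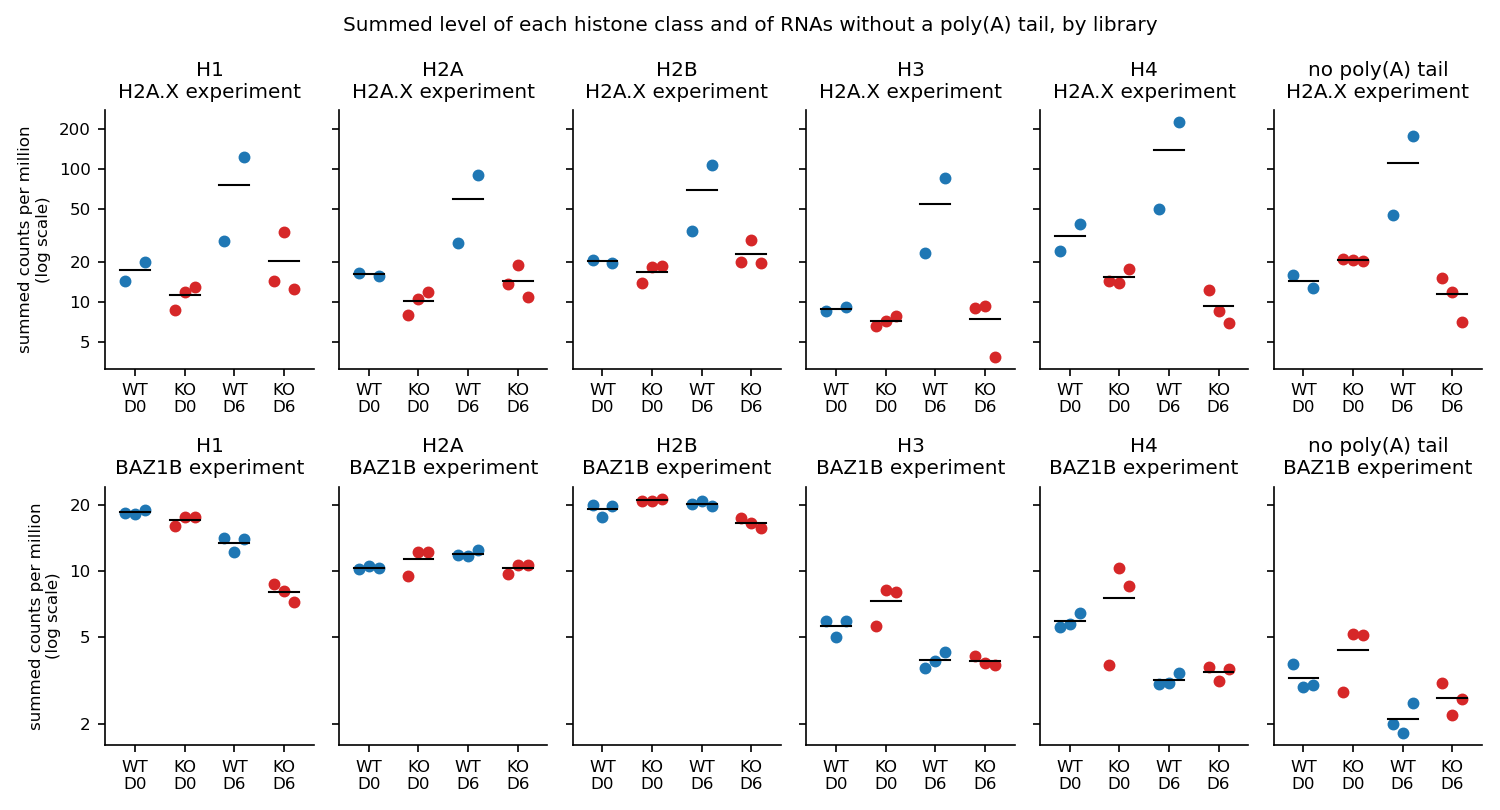
Summed level of each histone class and of 24 RNAs without a poly(A) tail in the H2A.X experiment (top row) and the BAZ1B experiment (bottom row). Each point is 1 library, the y axis is summed CPM on a log scale with a different range in each row, and the line is the group mean. In the H2A.X experiment the higher WT library at D6 is replicate 2, for instance at 224 CPM for H4 against 50.3 CPM in replicate 1.

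**Figure D2:**
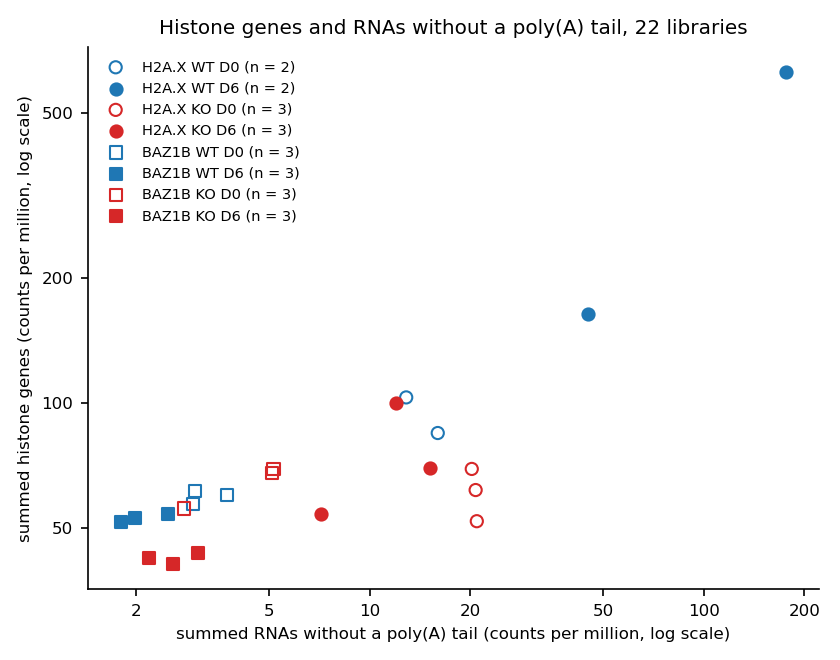
Summed histone genes against summed RNAs without a poly(A) tail in all 22 libraries, in CPM on log axes. Circles are the H2A.X and squares the BAZ1B experiment, open symbols D0 and filled symbols D6, blue WT and red KO. The 2 filled blue circles, H2A.X WT at D6, lie above and to the right of all other libraries, at 164 and 627 CPM of histone genes.

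At D0, 1 histone gene passed the test between H2A.X KO and WT. The KO values lay below both WT values in the sum of each class, with KO means of 49.2% of WT for H4, 62.8% for H2A, 64.9% for H1, 81.7% for H3 and 84.0% for H2B. HIST3H2A, an H2A gene outside the main cluster, is on the polyadenylated list and has an annotated transcript that runs past the stem-loop. HIST3H2A had 65.7 and 71.8 normalized counts in WT and 12.7, 32.6 and 34.5 in KO. Its log2 fold change was -1.36 ± 0.42 (SE; adjusted p = 0.030). Thus 0 members rose and 1 fell of 52 tested, where 35.1% of all genes were called (18.4% higher and 16.7% lower), and the median log2 fold change was -0.44 over the members, 0.01 over all genes and -0.68 over the 367 tested non-histone genes of at most 1000 bases. The groups did not overlap in 23 members that lay lower and 2 that lay higher in KO, where 34.1% and 36.1% of all genes did so. At an unadjusted p under 0.05 there were 4 members, HIST3H2A included, all lower, and the share of all genes under that rule was not taken. The call moved with the processing, since it was lost on leaving out either WT library or KO replicate 1 at D0, while 6 members fell without WT replicate 1 at D6 and 7 fell in a fit of the D0 libraries alone, where 30.5% and 47.5% of all genes were called. All 3 KO headers at D0 carry the word Redo and no WT header does, so genotype and Redo cannot be told apart at D0.

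At D6, most tested histone genes were lower in H2A.X KO than in WT, and H4 genes stood lowest. HIST1H4C, which encodes histone H4, had 402 and 1716 normalized counts in WT and 106, 61.8 and 47.3 in KO, with no overlap between the groups. HIST1H4B, a second H4 gene, had 120 and 669 in WT and 21.1, 15.2 and 11.6 in KO. HIST1H4H had 60.5 and 277 in WT and 7.35, 6.65 and 8.69 in KO. These 3 genes had log2 fold changes of -3.87 ± 0.54 (adjusted p = 0.0031), -4.61 ± 0.63 (adjusted p = 0.0031) and -4.45 ± 0.58 (adjusted p = 0.0029). HIST1H4E fell by 3.41 ± 0.57 (adjusted p = 0.0038), with 118 and 521 counts in WT against 35.8, 28.5 and 25.1 in KO. The linker histone genes HIST1H1B and HIST1H1D fell by 3.41 ± 0.61 and 3.44 ± 0.75 on the log2 scale (adjusted p = 0.0042 and 0.0065). HIST1H1B had 102 and 558 counts in WT and 39.5, 37.1 and 15.4 in KO, and HIST1H1D had 70.8 and 376 in WT and 38.6, 14.3 and 7.72 in KO. Neither gene overlapped between the groups, although in each case the upper WT value was replicate 2.

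In counts, 0 members rose and 43 of 52 fell, where 43.1% of all genes were called, 22.2% higher and 20.9% lower. In 42 members all KO libraries were below both WT libraries, where 32.3% of all genes were. The median log2 fold change was -2.65 over the members against -0.01 over all genes. All 9 H4 and all 12 H2A members tested fell, with 9 of 10 H3, 3 of 4 H1 and 10 of 17 H2B members, and the class medians ran from -3.87 for H4 to -1.86 for H2B. The 9 members that did not pass were HIST1H1C, HIST1H2BD, HIST1H2BE, HIST1H2BK, HIST1H2BN, HIST1H3E, HIST2H2BC, HIST2H2BD and HIST2H2BE, named after their values were seen. Among the tested members of the polyadenylated list, 5 of 9 fell with a median of -1.48, and 38 of the 43 others fell with a median of -3.01. The 11 tested genes annotated past the stem-loop had 6 called and a median of -1.60, and the 38 annotated to the stem-loop had 36 called and a median of -3.12. HIST2H3D, an H3 gene named after its values were seen, was at 0 in all 3 KO libraries and at 10.3 and 12.5 in WT, which makes it at least 12.1-fold lower against a floor of 3 counts over the group. It passed the filter on low counts only through the WT libraries at D6, the group where it was high. Its WT value rests on 16 reads, and 62.8% of its windows are shared with other histone genes, so its counts are uncertain. With this bound in place of its fitted value the median of the members stayed at -2.65. HIST1H4I, HIST1H2AK, HIST1H2AL, HIST1H2APS5, HIST1H2BI, HIST1H2BO, HIST1H3A and HIST1H2BF would also not have passed the filter without the WT libraries at D6. All of them are among the members that fell, so part of these counts and medians followed from the filter and is no support.

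These D6 counts rested on WT replicate 2. Without it, 3 of 52 members fell, all of them H4 genes, and the median log2 fold change was -1.26. The loss of calls was not limited to histone genes, since 1.1% of all genes were called in that fit. The 3 were HIST1H4H at -2.95 ± 0.42 (adjusted p = 0.021), HIST1H4B at -2.87 ± 0.43 (adjusted p = 0.023) and HIST1H4C at -2.45 ± 0.41 (adjusted p = 0.038). The class medians were then -2.36 for H4, -2.04 for H3, -1.59 for H1, -0.89 for H2A and -0.78 for H2B, and 49 of the 52 values stayed below 0. In that fit the lone WT library at D6 is assumed to vary like the other groups. The summed H4 level of WT replicate 1 was 4.10 times the highest KO library, and its H1 level was 0.85 times the highest KO library. HIST1H1C, a linker histone gene on the polyadenylated list, had 284 and 1011 counts in WT, 149, 527 and 191 in KO, a log2 value of -1.16 ± 0.58 (adjusted p = 0.13), and a value of 0.05 ± 0.64 without replicate 2.

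**Figure D3:**
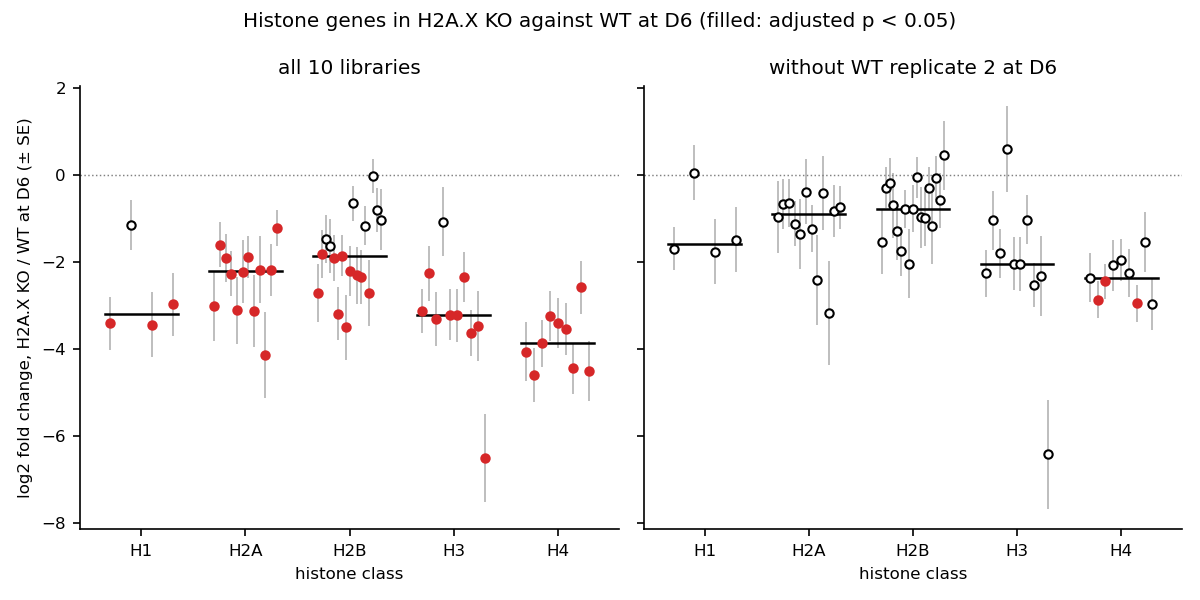
Log2 fold change of each tested histone gene in H2A.X KO against WT at D6, by class, with all 10 libraries (left) and without WT replicate 2 at D6 (right). Bars are standard errors, black lines are class medians, and filled red points passed an adjusted p of 0.05. On the left 43 of 52 points are filled, and on the right 3, all in H4.

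Other measured quantities moved with this comparison. The 5 tested RNAs without a poly(A) tail all fell in KO at D6, where 20.9% of all genes fell. RN7SL1 fell by 4.26 ± 0.49 and RMRP by 1.79 ± 0.48 on the log2 scale (adjusted p = 0.0016 and 0.015). RNY1 and SCARNA21, also among the 5, passed the filter on low counts only through the WT libraries at D6, where they were high. With the summed level of the RNAs without a poly(A) tail as a covariate, 0 members were called, as were 9 of 13236 genes in all. The median log2 value of the members was then 0.39. Transcript length moved with it as well, since the log2 fold change over 12023 genes had a Spearman's rho of 0.467 with annotated length at D6 and 0.430 at D0, a description across genes that are not independent. The 367 tested non-histone genes of at most 1000 bases had a median of -1.03 at D6 and -0.68 at D0, and the median exon length of the tested histone genes was 494.5 bases. With a correction for length and GC content, 18 members fell and 1 rose at D6, 8 of the 18 in H4, where 30.6% of all genes were called. At D6 the only KO library without Redo in its header is replicate 3. It lay below both WT libraries in 50 of 52 members, replicate 1 in 51 and replicate 2 in 43. With replicate 3 alone standing for KO at D6, 9 of 53 members fell and the median was -3.15, where 5.22% of all genes were called. This alternative was chosen after seeing the data, and its lone KO library at D6 is assumed to vary like the other groups.

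Over the 6 days of maturation, 4 histone genes rose in WT of the H2A.X experiment. This comparison uses the same 2 WT libraries at D6 as the KO comparison above. HIST1H4E had 29.3 and 50.3 normalized counts at D0 and 118 and 521 at D6, a log2 fold change of 3.00 ± 0.65 (adjusted p = 0.046). In total 4 of 52 members rose and 0 fell, where 2% of all genes were called (0.839% higher and 1.16% lower), and all 52 log2 values were above 0 with a median of 2.25. Both D6 libraries were above both D0 libraries in 50 members, where 25.2% of all genes were. The 3 besides HIST1H4E were HIST1H2BF, HIST1H3A and HIST1H3I, named after their values were seen. HIST1H2BF and HIST1H3A would not have passed the filter on low counts without the WT libraries at D6, the group in which they were called higher. The same held for HIST2H3D, HIST1H4I, HIST1H2AK, HIST1H2AL, HIST1H2APS5, HIST1H2BI and HIST1H2BO, which count among the 52 values above 0. With a term for the subclone, since the days of 1 subclone deviated together, 15 rose and 0 fell, where 8.51% of all genes were called. DESeq2 called 24 of 65 members and a fit with no filter on low counts 38 of 65, all higher, where 3.97% and 4.98% of all genes were called. RNA without a poly(A) tail rose over the same days, its sum by 2.82 times in replicate 1 and 13.6 times in replicate 2, and RN7SL1 rose by 3.19 ± 0.54 on the log2 scale (adjusted p = 0.028). With that sum as a covariate edgeR called 0 members and 0 genes in all. Without WT replicate 2 at D6 no member passed in edgeR and the median was 0.89, where 1 gene was called in all, and without replicate 1 at D6, 18 of 55 rose, where 1.32% of all genes were called. The calls were also lost, at 0, on leaving out any 1 of the D0 libraries of either genotype.

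In H2A.X KO the family as a whole did not move in 1 direction over the 6 days. The median log2 fold change was -0.03, with 25 members above and 27 below 0. Of the 52 tested members 2 passed, where 30.9% of all genes were called, 14.8% higher and 16.1% lower. The H2B pseudogene HIST2H2BC rose by 1.18 ± 0.36 (adjusted p = 0.032), from 16.9, 24.0 and 28.0 to 30.3, 63.7 and 62.7 normalized counts, but 78.5% of its 75-base windows are shared with other histone genes and all of its exon lies under another annotated gene, so its counts are uncertain. HIST2H3D, at 1.69, 1.72 and 3.29 at D0, was at 0 in the 3 D6 libraries and at least 2.36-fold lower, from 8 reads at D0 and with the same uncertainty. Both calls were lost on leaving out any KO library at D0 or KO replicate 2 at D6, and on leaving out either WT library at D6, 3 members rose and 4 fell, where 27.6% and 27.9% of all genes were called. With the subclone term 4 members rose and 3 fell, where 38.5% of all genes were called, and the 3 were H4 genes. The sums of H4 were 14.4, 13.8 and 17.9 CPM at D0 and 12.3, 8.66 and 6.98 CPM at D6, without overlap. The sums of H1 were 8.76, 11.9 and 13.1 CPM at D0 and 14.5, 33.5 and 12.6 CPM at D6, which overlap. For the difference between the D6 and D0 effects of H2A.X KO, 0 members passed in edgeR, against 1.34% of all genes (0.302% higher and 1.04% lower). There were 31 members at an unadjusted p under 0.05, all lower, but the share of all genes under that rule was not taken. DESeq2 called 9 members, where it called 2.62% of all genes. The median of this difference was -2.22.

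The BAZ1B experiment was deeper and showed much smaller differences. The 89 genes summed to 60.1, 57.1 and 61.5 CPM in WT and 55.7, 69.2 and 67.9 CPM in KO at D0, and to 52.8, 51.8 and 53.9 CPM in WT and 43.6, 42.3 and 40.9 CPM in KO at D6. The 3 KO libraries at D6 were below all others. The RNAs without a poly(A) tail summed to 2.78 to 5.16 CPM at D0 and 1.81 to 3.06 CPM at D6, and at D6 the KO values of 3.06, 2.19 and 2.59 overlapped the WT values of 1.99, 1.81 and 2.49.

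At D0 no histone gene passed the test in BAZ1B KO against WT with edgeR, where 3.88% of all genes were called, 1.25% higher and 2.64% lower. At an unadjusted p under 0.05 there were 3 members, all higher, with no share of all genes taken under that rule, and DESeq2 called none. The median log2 fold change was 0.25 over the 42 members. KO replicate 1 stood below the other KO libraries in H4, at 3.70 CPM against 10.3 and 8.57 CPM, with WT at 5.55, 5.73 and 6.40 CPM. Without that library 3 members rose, all H4 genes (HIST1H4B, HIST1H4C and HIST1H4F, named after their values were seen), where 9.35% of all genes were called. HIST1H4F was not tested with that library in, and without it passed the filter only through the other KO libraries at D0, where it was high. The sum of RNAs without a poly(A) tail was also lowest of the 3 in that library, at 2.78 CPM against 5.16 and 5.10 CPM.

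At D6 the linker histone gene HIST1H1C was lower in BAZ1B KO, and it was the only member called of 42, where 12.8% of all genes were called, 6.87% higher and 5.97% lower. It had 508, 439 and 489 normalized counts in WT and 304, 275 and 241 in KO. The groups did not overlap, and the log2 fold change was -0.81 ± 0.09 (adjusted p = 0.00011). At D0 the same gene had 652, 640 and 671 counts in WT and 580, 593 and 614 in KO, a log2 value of -0.14 ± 0.09 (adjusted p = 0.50). The difference between the days was itself called, at -0.67 ± 0.12 (adjusted p = 0.017), the only such call among 42 members where 2.47% of all genes were called, 1.58% higher and 0.893% lower. The D6 value stayed between -0.89 and -0.66 and past the threshold in each alternative run, and without KO replicate 1 at D0 the H2B gene HIST1H2BN, named after its values were seen, was called lower as well. The difference between the days stayed between -0.76 and -0.58, but its adjusted p rose to 0.052, 0.057 and 0.061 on leaving out KO replicate 3, WT replicate 1 or WT replicate 2 at D0. The H1 sums, of which HIST1H1C is a part, were 14.1, 12.3 and 14.0 CPM in WT and 8.70, 8.06 and 7.24 CPM in KO at D6. Besides HIST1H1C, 6 members lay lower in KO without overlap at D6 and 1 lay higher, where 15.2% and 15.7% of all genes did so. The median of the 42 members was -0.17, with H2A at -0.32 and H2B at -0.26 but H3 at 0.47 and H4 at 0.24.

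From D0 to D6 in BAZ1B WT, histone genes moved in both directions. Of 42 members 5 rose and 12 fell, where 68.9% of all genes were called, 33.5% higher and 35.4% lower. HIST1H2AG, an H2A gene, rose from 44.8, 50.8 and 45.8 to 97.1, 93.9 and 89.7 normalized counts, a log2 fold change of 0.99 ± 0.16 (adjusted p = 0.00011). HIST3H2A rose from 72.2, 68.9 and 82.9 to 116, 111 and 143, by 0.72 ± 0.19 (adjusted p = 0.0047). The pseudogene HIST2H2BC rose by 0.70 ± 0.15 (adjusted p = 0.0011). Among the genes that fell, HIST1H1C was lower by 0.45 ± 0.09 (adjusted p = 0.00046), and HIST1H2BD went from 64.9, 60.3 and 74.9 to 46.9, 54.3 and 45.3, a log2 fold change of -0.45 ± 0.17 (adjusted p = 0.028). The H3 gene HIST1H3G went from 62.2, 49.1 and 51.1 to 12.3, 18.1 and 12.1, a log2 fold change of -1.93 ± 0.35 (adjusted p = 0.00031). The H4 gene HIST1H4H went from 30.2, 38.8 and 42.3 to 10.04, 20.4 and 17.1, a log2 fold change of -1.22 ± 0.32 (adjusted p = 0.0040). By class, 4 of 8 H4, 3 of 8 H3, 1 of 4 H1, 3 of 12 H2B and 1 of 10 H2A members fell, and the medians were -0.84, -0.65, -0.71, -0.06 and -0.12. The H4 genes HIST4H4, HIST1H4A, HIST1H4B and HIST1H4D would not have passed the filter on low counts without the D0 libraries, where they were high. The same held for members of other classes, HIST1H1D, HIST1H3C and HIST1H2BL among them. Part of these counts and medians therefore followed from the filter and is no support.

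In BAZ1B KO the balance was further towards lower values. Here 1 member rose and 21 fell of 42, where 67.7% of all genes were called (33.2% higher and 34.5% lower), and the median was -0.92. HIST1H2AG again rose, from 54.2, 59.3 and 40.7 to 98.1, 98.6 and 95.2 counts (0.92 ± 0.16, adjusted p = 0.00022). HIST1H4C went from 34.5, 141 and 132 to 54.5, 26.7 and 48.1 counts (-1.24 ± 0.41, adjusted p = 0.018), and its groups overlap through KO replicate 1 at D0. HIST1H1C went from 580, 593 and 614 to 304, 275 and 241 (-1.12 ± 0.09, adjusted p = 1.7e-07). HIST1H2BJ and HIST1H2BD, both H2B genes on the polyadenylated list, fell by 1.12 ± 0.29 and 0.83 ± 0.17, and HIST1H3H fell by 0.48 ± 0.18 (adjusted p = 0.0037, 0.00059 and 0.030). By class, 7 of 8 H4, 3 of 8 H3, 2 of 4 H1, 6 of 12 H2B and 3 of 10 H2A members fell. The limit given for WT holds here too, since several members passed the filter only through the D0 libraries. The polyadenylated list gave 6 of 10 lower and 0 higher, with a median of -0.60, and the 32 other members 15 lower and 1 higher, with a median of -0.94. Whether the day effect differs between KO and WT was tested by the difference above, in which HIST1H1C alone passed.

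**Figure D4:**
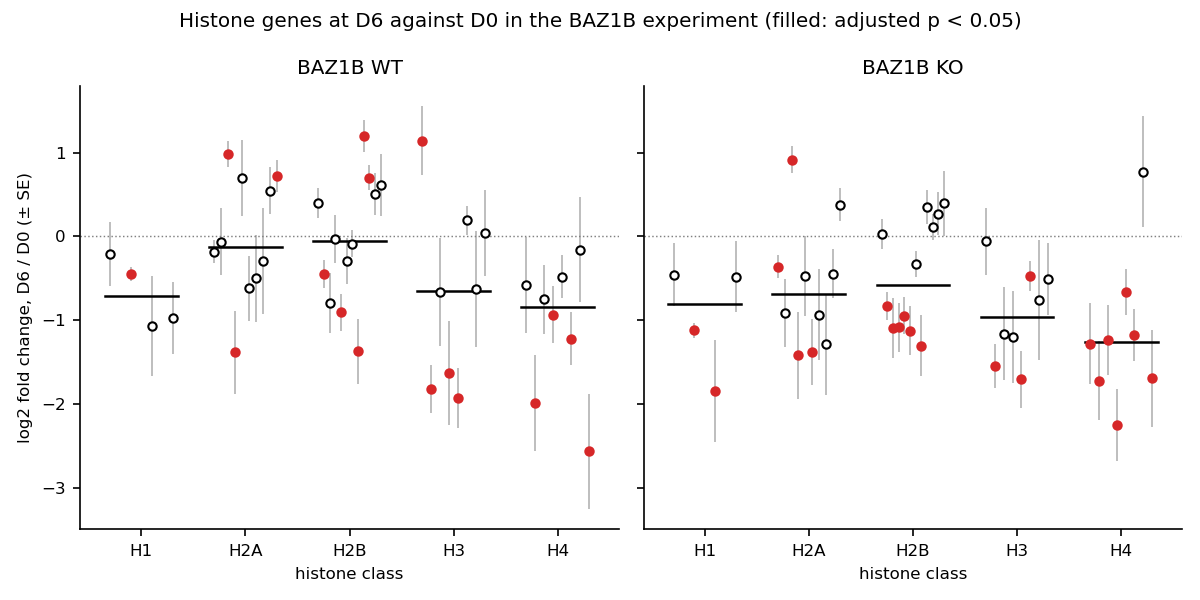
Log2 fold change of each tested histone gene at D6 against D0 in BAZ1B WT (left) and BAZ1B KO (right), by class. Bars are standard errors, black lines class medians, and filled red points passed an adjusted p of 0.05, 17 of 42 in WT and 22 of 42 in KO. The H4 medians are -0.84 and -1.26, and HIST1H2AG is the filled H2A point above 0 that both panels share. Several members, H4 genes among them, passed the filter on low counts only through the D0 libraries.

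**Figure D5:**
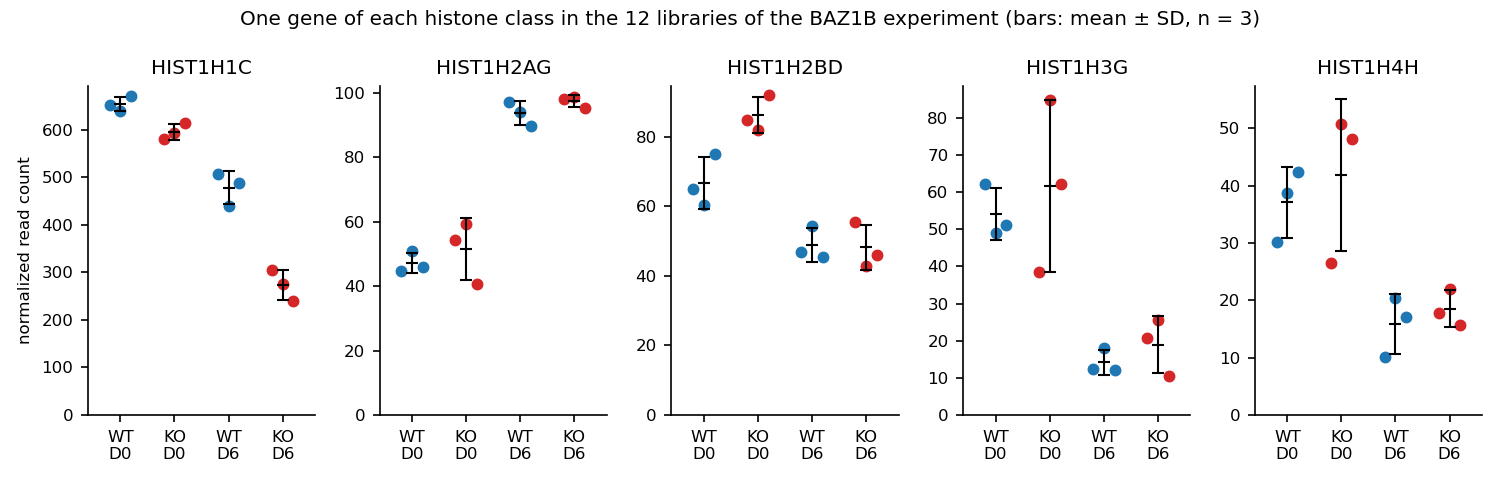
Normalized read counts of 1 gene of each class in the 12 libraries of the BAZ1B experiment, on linear axes from 0. Points are libraries, and bars are the mean ± SD of 3. HIST1H1C is lower in KO than in WT at D6, HIST1H2AG is higher at D6 in both genotypes, and HIST1H2BD, HIST1H3G and HIST1H4H are lower at D6 in both.

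RNA without a poly(A) tail moved with the day in this experiment also. RN7SL1 fell by 0.94 ± 0.23 in WT and by 1.02 ± 0.23 in KO (adjusted p = 0.0030 and 0.0014), whereas RMRP had values of 0.42 ± 0.39 and 0.40 ± 0.37. With the summed level of these RNAs as a covariate, 5 members rose and 5 fell in WT, and 2 rose and 6 fell in KO, where 61.4% and 58.4% of all genes were called. HIST1H4C then had a log2 value of 0.07 in KO (adjusted p = 0.89). The same covariate left HIST1H1C at D6 in KO against WT at -0.84 (adjusted p = 0.00026).

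Genes of S phase and of histone mRNA processing give the setting. S phase genes, 29 replication and nucleotide synthesis genes such as the MCM helicase subunits and PCNA, had 24 higher and 0 lower at D6 than at D0 in BAZ1B WT and 25 higher and 0 lower in BAZ1B KO, with medians of 0.44 and 0.46, where 33.5% and 33.2% of all genes were higher. They had 17 higher and 0 lower in H2A.X KO, where 14.8% of all genes were higher, and 0 called in H2A.X WT, where 3 were higher and 1 lower at an unadjusted p under 0.05. In H2A.X KO against WT, 1 of 29 was higher and 13 lower at D0, and 11 higher and 5 lower at D6, beside 18.4% and 16.7% of all genes at D0 and 22.2% and 20.9% at D6. In bulk RNA, fewer cells in S phase and less histone mRNA per cell cannot be told apart. A list of 11 histone variant genes, H2AFX among them, had 6 higher and 1 lower of 10 tested at D6 in BAZ1B WT, where 33.5% of all genes were higher and 35.4% lower. The linker variant H1F0 rose by 5.62 on the log2 scale there, named after its value was seen, while HIST1H1C fell.

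Of the histone mRNA processing factors, SLBP binds the stem-loop, NPAT and CASP8AP2 act at histone gene promoters, LSM10 and LSM11 belong to the U7 particle that directs the cut, and ERI1 trims the end. In the H2A.X experiment NPAT had 597 and 378 normalized counts in WT and 1493, 1415 and 1424 in KO at D0, and 484 and 392 against 1881, 1999 and 1128 at D6. It rose by 1.56 ± 0.27 and 1.93 ± 0.28 in KO (adjusted p = 0.0061 and 0.0033). CASP8AP2 rose by 1.82 ± 0.31 and 1.96 ± 0.31 (adjusted p = 0.0055 and 0.0036). At D6 LSM11 rose by 1.21 ± 0.18, ERI1 rose by 0.85 ± 0.19 and LSM10 fell by 1.67 ± 0.19 (adjusted p = 0.0033, 0.0077 and 0.0015). SLBP was lower in KO at D0 at -0.69 ± 0.16 (adjusted p = 0.013) and had a value of -0.10 ± 0.16 at D6. Of the 19 tested genes of this list, 4 were higher and 3 lower at D0 and 9 higher and 2 lower at D6, beside 18.4% of all genes higher and 16.7% lower at D0 and 22.2% and 20.9% at D6. Under the length and GC correction the D0 value of LSM10 changed sign and the D0 call of SLBP and the D6 call of ERI1 were lost, and without WT replicate 2 at D6 the D6 calls of NPAT, CASP8AP2 and ERI1 were lost at adjusted p = 0.055, 0.061 and 0.079.

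In the BAZ1B experiment none of these 6 genes differed between KO and WT in the test, with log2 values of -0.15 to 0.14 over both days. Of the whole list of 19, 0 were called at D0 in edgeR, with 1 at an unadjusted p under 0.05, and 1 was higher and 1 lower at D6. Of all genes 3.88% were called at D0, and 6.87% were higher and 5.97% lower at D6. From D0 to D6 in WT, SLBP rose by 0.41 ± 0.04, ERI1 by 0.85 ± 0.04, LSM11 by 0.36 ± 0.07, CASP8AP2 by 0.31 ± 0.05 and NPAT by 0.15 ± 0.04, and LSM10 fell by 0.51 ± 0.09. SLBP had 4361, 4098 and 4061 counts at D0 and 5559, 5482 and 5594 at D6 in WT, and 4038, 4151 and 4088 at D0 and 5454, 5549 and 5729 at D6 in KO. Thus in both genotypes SLBP RNA was higher at D6 in every library. The mean of the summed H4 level fell, to 53.8% of its D0 mean in WT and 45.9% in KO. KO replicate 1 was already at 3.70 CPM of H4 at D0, beside 3.15 to 3.64 CPM in the KO libraries at D6. The H1 and H3 sums were at 72.5% and 70.0% of D0 in WT and at 46.6% and 53.1% in KO, where H1 was close to H4. The H2A and H2B sums were at 115.8% and 105.9% of D0 in WT and at 91.5% and 78.8% in KO. The sum of RNAs without a poly(A) tail also fell, to 64.8% in WT and 60.2% in KO.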

How the data were processed

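RNA-seq of HUDEP-2 WT and KO subclones at D0 and D6 was analysed from 2 gene tables of raw read counts deposited by the authors, 1 for each experiment. The authors' notes name STAR 2.7.0f, Subread 1.6.4 with featureCounts, DESeq2 1.22.1 and the hg38 build. Strand and multimapping settings of the counting were not given in the sources used here, and the labels and the published methods name different library kits, so reads of overlapping genes on opposite strands were treated as inseparable.

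Counts were normalized by the TMM method and tested across all genes with the quasi-likelihood test of edgeR 4.0.16 in R 4.3.3, with 1 fit for each experiment over its 4 groups of genotype and day. Genes were kept by edgeR's expression filter set to at least 10 reads, and 15 in total. A gene was called at a Benjamini-Hochberg adjusted p below 0.05, and all p-values were adjusted over all genes tested. "Rose", "fell" and "called" refer to this rule. Counts at an unadjusted p under 0.05 have no share of all genes beside them. Values after ± are standard errors. A group at 0 was bounded by a floor of 3 counts over the group, which covers counting error only. The alternatives were DESeq2 1.42.0, upper-quartile scaling, no filter, scaling without globin and histone genes, a replicate or subclone term, a length and GC correction (spline with 4 degrees of freedom), the RNAs without a poly(A) tail as covariate, the libraries of the compared day alone and leaving out each library. The tests were checked on simulated data.

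The labels number the replicates and do not say whether they are separate subclones or cultures, while the paper speaks of WT and KO subclones. Where replicates are not separate cultures the p-values measure only the spread between these samples. The subclone term treated same-numbered libraries of 1 genotype as 1 subclone. No pair of replicates agreed within sampling noise. Same-numbered libraries of 1 genotype deviated together between days in the H2A.X experiment (r of 0.54 in WT and 0.31 to 0.61 in KO) and in BAZ1B KO (r of 0.11 to 0.58), but not in every pair of BAZ1B WT (r of -0.05 to 0.21). Histone genes were matched to annotation by their older symbols, and the stem-loop was searched in hg38 after annotated stop codons.

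Genes named were, in each comparison, up to 5 called in each direction with the largest change and a mean normalized count of at least 50, the 2 coding genes of each class with the highest mean count, the polyadenylated list, 6 processing factors and both KO targets. Other histone genes whose values are given are said to be named after their values were seen. The members, gene lists and tests were chosen with earlier results of these data known.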

Additional observations from a re-analysis of the deposited data

Results flagged for a closer look

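HIST1H1C in the BAZ1B experiment differed in its KO effect between the days. The KO effect was -0.14 ± 0.09 at D0 and -0.81 ± 0.09 at D6 on the log2 scale, and the difference of -0.67 ± 0.12 passed the edgeR test (adjusted p = 0.017). All 3 KO libraries were below all 3 WT libraries on both days. The call was lost on leaving out KO replicate 3, WT replicate 1 or WT replicate 2 at D0, at adjusted p = 0.052, 0.057 and 0.061. Groups here hold 2 or 3 libraries, and whether 1 library stood apart within a group was examined by leaving each out.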

How the results depend on the processing

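Counts of histone genes called moved most in the H2A.X experiment, and the cause was not tested. The share of all genes called moved between settings too, so these counts are not results about histone genes alone. In the main fits 35.1% of all genes were called for KO against WT at D0 and 43.1% at D6. The days gave 2% in WT and 30.9% in KO, and the difference between the days gave 1.34%. For KO against WT at D0 the count of 1 became 2 with upper-quartile scaling, 5 without a filter, 0 with the length and GC correction with or without the replicate block, 12 with the covariate and 7 with D0 libraries alone, and 0 to 6 on leaving out 1 library. For KO against WT at D6 the 43 became 19 with the length and GC correction, 14 with the block added, 0 with the covariate, 9 without the Redo libraries (chosen after seeing the data) and 3 to 48 on leaving out 1 library. For D6 against D0 in WT the 4 became 24 with DESeq2, 38 without a filter, 15 with the block, 1 with the length and GC correction, 2 with the block added, 0 with the covariate and 0 to 18 on leaving out 1 library. In KO the 2 became 11 without a filter and 7 with the block, with the block and length and GC correction, or with the covariate, and 0 to 7 on leaving out 1 library. For the difference between the days the 0 became 9 with DESeq2, 19 without a filter, 5 with the block, 1 with the block and the length and GC correction, and 0 to 5 on leaving out 1 library.

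In the main fits of the BAZ1B experiment 68.9% of all genes were called for the days in WT and 67.7% in KO. KO against WT gave 3.88% at D0 and 12.8% at D6, and the difference between the days gave 2.47%. Among histone genes the covariate gave 10 in place of 17 for the days in WT and 8 in place of 22 in KO. Leaving out 1 library gave 14 to 19 and 15 to 26 for these, 0 to 3 for KO against WT at D0, 1 to 2 at D6 and 0 to 1 for the difference between the days. The KO and WT libraries of 1 day share only a number, and the replicate block left the counts of KO against WT within 1.5 times in both experiments.

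Of 1226 values for 62 results of named genes, 1089 kept their direction and side of the threshold, 129 lost the call and 8 reversed. With the covariate, the D6 values in H2A.X KO reversed to 0.66 for HIST1H1B, 0.78 for HIST1H1D, 0.60 for HIST1H2AC, 1.59 for HIST1H2BC and 0.63 for HIST1H2BJ, and HIST1H4C in BAZ1B KO over the days to 0.070. LSM10 at D0 in H2A.X KO reversed to 0.10 with the length and GC correction and to 0.16 with the block added. Low counts limit most members, whose median was 31.8 and 21.2 normalized counts.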
